A study of Mus musculus with 6 samples.

Results

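NONCODE is a database of noncoding RNA models, and 18964 of its transcripts in the deposited table lay inside an Ensembl gene on the same strand. They were chosen by position alone: rows with a NONCODE identifier and the description lncRNA, on an autosome, with at least 50% of their span inside the span of all Ensembl transcripts of a single gene symbol on that strand. They came from 66167 NONCODE long noncoding transcripts, 63944 of them on autosomes, and from 149728 transcripts in all. The remaining autosomal ones overlapped a same-strand gene by less (1458), lay only opposite a gene (8367) or touched no Ensembl gene (35155). The 18964 members fell into 7104 host genes of the 22158 in the table, and each was set against the summed Ensembl transcripts of its host.

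The RNA came from lungs of BALB/c mice labelled as 9 weeks old, BALB/c being an inbred laboratory strain. One group of 3 libraries (numbered 2, 3 and 4) came from mice given fine airborne particles, PM2.5, into the windpipe at 5 mg per kg of body weight every week for 8 weeks, and the other 3 (also 2, 3 and 4) from mice given only the saline carrier, 50 µl a time. Whether each library is its own mouse, or a pool, is not in the labels; p-values therefore cover only how these samples vary. Values are FPKM, in which fragments are divided by library size and by the length of the transcript, which allows levels of different transcripts to be set side by side; the fragments behind each value were not recovered, so the depth is unknown. The library kit does not mark the strand, so a member and a gene opposite it cannot be told apart by their reads, and the table lists spans but no exons. Surfactant genes Sftpb (1587 to 1900 FPKM with PM2.5 and 1524 to 1767 with saline) and Ager, a marker of flat alveolar cells (330 to 425 and 375 to 427 FPKM), were high in every library. Nkx2-1, a transcription factor of lung epithelium, was at or under 0.0406 FPKM in all 6 libraries. In bulk lung, fewer cells of a type and less RNA per cell cannot be told apart.

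Transcripts that lie within a longer gene on its own strand are a mixed class. Some are independent noncoding RNAs with promoters of their own, some are precursors of microRNAs, and others are alternative ends, retained introns or partial copies of the host messenger RNA, among which a catalogue built from sequencing fragments does not always distinguish. Where a member covers bases that the host transcripts also cover, a quantifier has to divide the same fragments between the models.

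Some members begin in the promoter of their host, and 3 of these promoters are shown because their members were lower with PM2.5 than with saline. Of the 18964 members, 1074 had their 5′ base in the RefSeq promoter window of the host (250 bases before to 50 after the start, assembly GRCm38.p6). Capitals run from the 5′ base of the member to the end of the window, which is chr7:3629735-3630034 on the plus strand for Prpf31, chr15:88819269-88819568 on the minus strand for Alg12 and chr15:5063724-5064023 on the minus strand for C7. Prpf31 encodes a splicing factor of the U4/U6 particle, Alg12 a mannosyltransferase that builds the sugar donor for protein glycosylation, and C7 a component of the complement membrane attack complex.
Prpf31, member NONMMUT124662.1: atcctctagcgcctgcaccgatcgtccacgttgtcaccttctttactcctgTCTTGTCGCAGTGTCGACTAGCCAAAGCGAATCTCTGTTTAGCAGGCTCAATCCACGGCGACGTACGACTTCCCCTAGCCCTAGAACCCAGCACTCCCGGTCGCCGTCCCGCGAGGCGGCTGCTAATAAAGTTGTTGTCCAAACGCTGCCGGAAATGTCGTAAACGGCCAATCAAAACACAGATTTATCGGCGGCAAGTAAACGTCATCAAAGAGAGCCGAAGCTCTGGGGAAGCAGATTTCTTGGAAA
Alg12, member NONMMUT024567.2: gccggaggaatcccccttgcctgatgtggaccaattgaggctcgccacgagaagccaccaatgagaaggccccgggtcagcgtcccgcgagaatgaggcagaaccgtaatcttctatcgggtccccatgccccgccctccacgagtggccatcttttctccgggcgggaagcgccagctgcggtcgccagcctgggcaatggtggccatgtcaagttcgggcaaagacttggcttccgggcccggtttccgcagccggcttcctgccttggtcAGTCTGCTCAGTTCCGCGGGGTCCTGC
C7, member NONMMUT022612.2: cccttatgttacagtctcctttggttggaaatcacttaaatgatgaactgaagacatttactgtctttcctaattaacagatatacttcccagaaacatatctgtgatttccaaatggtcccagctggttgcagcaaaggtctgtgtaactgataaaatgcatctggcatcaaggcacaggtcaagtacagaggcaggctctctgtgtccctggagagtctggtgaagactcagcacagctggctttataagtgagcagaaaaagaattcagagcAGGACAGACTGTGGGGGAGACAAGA
The windows of these 1074 members had a median GC content of 59.7% and 19 CpG, against 52.7% and 7 CpG over all 32851 promoter windows of the same length. The motifs GGGCGG and TATAAA were searched on both strands; GGGCGG was present in 56.1% of them and in 35.7% of all windows, and TATAAA in 11.2% and 13.6%. Of the 3 printed, the Alg12 window held GGGCGG, the C7 window held TATAAA on the opposite strand (printed as its complement, TTTATA) and the Prpf31 window held neither.

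Other members span the hairpins of microRNAs, short RNAs that pair with messenger RNAs through bases 2 to 8 (the seed). Hairpins of 51 microRNA genes, of 1005 in the RefSeq table, lay wholly inside 124 members on the same strand. The mature sequences below are those of well-known microRNAs whose hairpin lies in a member of at least 1 FPKM, taken from RefSeq with the seed in capitals and grouped by seed: the miR-29 pair in A330023F24Rik on chromosome 1, the miR-200 group in Ttll10 on chromosome 4, miR-22 in Mir22hg on chromosome 11 and miR-101a in E130102H24Rik on chromosome 4.
mmu-miR-29b-3p: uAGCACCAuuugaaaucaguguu
mmu-miR-29c-3p: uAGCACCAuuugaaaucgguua
mmu-miR-200b-3p: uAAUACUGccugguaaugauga
mmu-miR-429-3p: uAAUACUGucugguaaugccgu
mmu-miR-200a-3p: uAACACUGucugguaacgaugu
mmu-miR-22-3p: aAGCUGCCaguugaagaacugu
mmu-miR-101a-3p: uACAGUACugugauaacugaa
miR-29b and miR-29c share a seed, as do miR-200b and miR-429, while that of miR-200a differs from theirs.

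Most members were short stretches deep inside long coding genes. Their median span was 2128 bases (quartiles 1256 and 3237), against 96712 bases for the hosts. In all, 17076 of them (90.0%) lay wholly inside the host, 18584 had a single same-strand host and 1210 also had an Ensembl gene on the other strand. Protein-coding genes hosted 16638 members (87.7%) and annotated lncRNA genes 1438. A host held a single member in 3628 cases and 5 or more in 888, up to 328 in Lsamp, a neuronal adhesion gene. By position, 13962 members kept both ends more than 100 bases away from the ends of any host transcript, 2340 shared a 3′ end, 1401 shared a 5′ end, 551 shared both and 710 ran past the host. Near the 50% limit, the 177 members with 50% to 60% of their span in the host had a median of 0.127 FPKM, and the 178 transcripts left out with 40% to 50% had 0.163 FPKM.

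The median over all members was 0.4996 FPKM, 9477 averaged 0.5 FPKM or more and were tested, and 443 reached 10 FPKM. An average of 0.5 FPKM or more was reached by 50.0% of members and 40.4% of all transcripts. It was reached by 48.2% of Ensembl transcripts and 11.3% of the other NONCODE transcripts. Across the 8999 members tested with their host, the member stood at a median of 18.3% of the host sum (quartiles 9.92% and 41.2%). Among the 910 of these that share the host's 3′ end the median was 61.1%, and 311 of them were above their host. Member and host levels correlated across the 8999 pairs with a Spearman coefficient of 0.291, and their log2 fold changes with 0.0949; these are descriptions, since pairs share libraries and often a host. Members summed above the Ensembl transcripts in 1855 of 7104 hosts (26.1%).

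The 8 members with the highest means sat in 7SL RNA genes, in Celf2, in Tns1, in Cav1, in Scd1 and in Sptbn1. NONMMUT014453.2 in Rn7s1, a gene of the 7SL RNA of the signal recognition particle, had 20242, 14098 and 17101 FPKM in the PM2.5 libraries and 9122, 19023 and 3553 FPKM in the saline libraries. NONMMUT014466.2 in Rn7s2 had 1325, 5983 and 4279 FPKM with PM2.5 and 3058, 1330 and 4632 FPKM with saline. The groups overlapped for both, and because the 7SL genes are near-identical copies the split of fragments between them is uncertain. NONMMUT055857.2 ends 1 base from a 3′ end of Cav1, the main protein of caveolae, and had 308, 342 and 311 FPKM with PM2.5 and 281, 328 and 316 FPKM with saline. Its host summed to only 68.2, 65.6 and 68.3 FPKM with PM2.5 and 66.8, 67.6 and 64.8 FPKM with saline. Most FPKM of host and member together thus stood on the NONCODE model in every library. The same held for NONMMUT034843.2 in Scd1, a fatty acid desaturase: the member had 270, 189 and 197 FPKM with PM2.5 and 377, 413 and 226 FPKM with saline, while the host had 11.3, 6.66 and 8.88 FPKM with PM2.5 and 14.6, 14.5 and 5.19 FPKM with saline. The Scd1 member groups overlapped (log2 fold change -0.60 ± 0.27 SE, limma adjusted p = 0.54).

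Without the 7SL hosts, members held 8.95 ± 0.584% of the FPKM of a PM2.5 library and 8.60 ± 0.607% of a saline library (SD, n = 3 each; exact permutation test, 2-sided, p = 0.5). Of the FPKM of their loci, meaning host plus members, they held 30.3 ± 1.04% with PM2.5 and 28.7 ± 0.953% with saline (exact permutation p = 0.2). The smallest p that 3 against 3 libraries allow is 0.1.

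At the level of single transcripts, 3 members were higher and 6 were lower with PM2.5 than with saline, and in each the groups lay far apart. The transcript fit compared log2(FPKM + 0.5) with limma's moderated test over all 60525 transcripts of at least 0.5 FPKM, calling those with a Benjamini-Hochberg adjusted p under 0.05. Over all those transcripts 0.0777% were called higher and 0.0743% lower, against 0.0317% and 0.0633% of the 9477 members tested, so the share of called members is near the background. The members' median log2 fold change was 0.05, against 0.00 over all transcripts. Fold changes below are PM2.5 over saline and include that pseudocount of 0.5, which makes those of low transcripts smaller.

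The member in Casz1, a zinc finger transcription factor of heart and vessel development, was the clearest. NONMMUT050618.2 (chr4:148953419-148954880, plus strand, 9 bases from a 3′ end of its host) had 14.0, 15.1 and 13.8 FPKM in the PM2.5 libraries and 0.295, 0.225 and 0.204 FPKM in the saline libraries. All 3 PM2.5 values were far above all 3 saline values (log2 fold change 4.32 ± 0.12 SE, limma adjusted p = 0.00028). The Ensembl transcripts of Casz1 summed to 13.8, 12.2 and 15.2 FPKM with PM2.5 and 13.7, 11.3 and 11.3 FPKM with saline, which overlap. Adding the member gave a locus of 27.8, 27.2 and 29.0 FPKM with PM2.5 and 14.0, 11.5 and 11.5 FPKM with saline, so the locus was higher too (log2 fold change 1.16, limma adjusted p = 0.0317). The locus call passed in 8 of 14 alternatives. It was lost when any library other than saline replicate 2 was left out, and with the replicate number as a block.

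In Kbtbd7, an adaptor of a cullin ubiquitin ligase, member and host changed places. NONMMUT021781.2 (chr14:79429258-79431036, plus strand, 3 bases from the 3′ end of the single Ensembl transcript) had 5.06, 4.05 and 5.16 FPKM with PM2.5 and 0.138, 0.159 and 0.214 FPKM with saline (log2 fold change 2.97 ± 0.15 SE, limma adjusted p = 0.0027). The Ensembl transcript was at 0 in each PM2.5 library, as listed, and had 4.89, 5.10 and 4.66 FPKM in the saline libraries. Their sum was 5.06, 4.05 and 5.16 FPKM with PM2.5 and 5.03, 5.26 and 4.87 FPKM with saline, and these groups overlapped (log2 fold change -0.09, limma adjusted p = 0.83). Kbtbd7 is among 24 genes named in an earlier report on these data, as are Ddx6, Scarb2, Vezf1 and Pxk below, so their values are descriptions and no independent evidence.

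The third higher member lay in Gm24950, a predicted small nuclear RNA gene, only just inside the overlap limit with 50.9% of its span. NONMMUT012087.2 (chr11:101641602-101641976, plus strand) had 99.8, 167 and 135 FPKM with PM2.5 and 2.24, 0.212 and 0.286 FPKM with saline (log2 fold change 6.83 ± 0.56 SE, limma adjusted p = 0.0185). Its host had 225, 390 and 276 FPKM with PM2.5 and 4.40, 0.475 and 468 FPKM with saline, so saline replicate 4 carried the host but not the member. The call was lost when any library other than saline replicate 2 was left out (adjusted p up to 0.31 over all alternatives). Small nuclear RNA genes occur in many near-identical copies, so the placing of these fragments is uncertain.

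**Figure D1:**
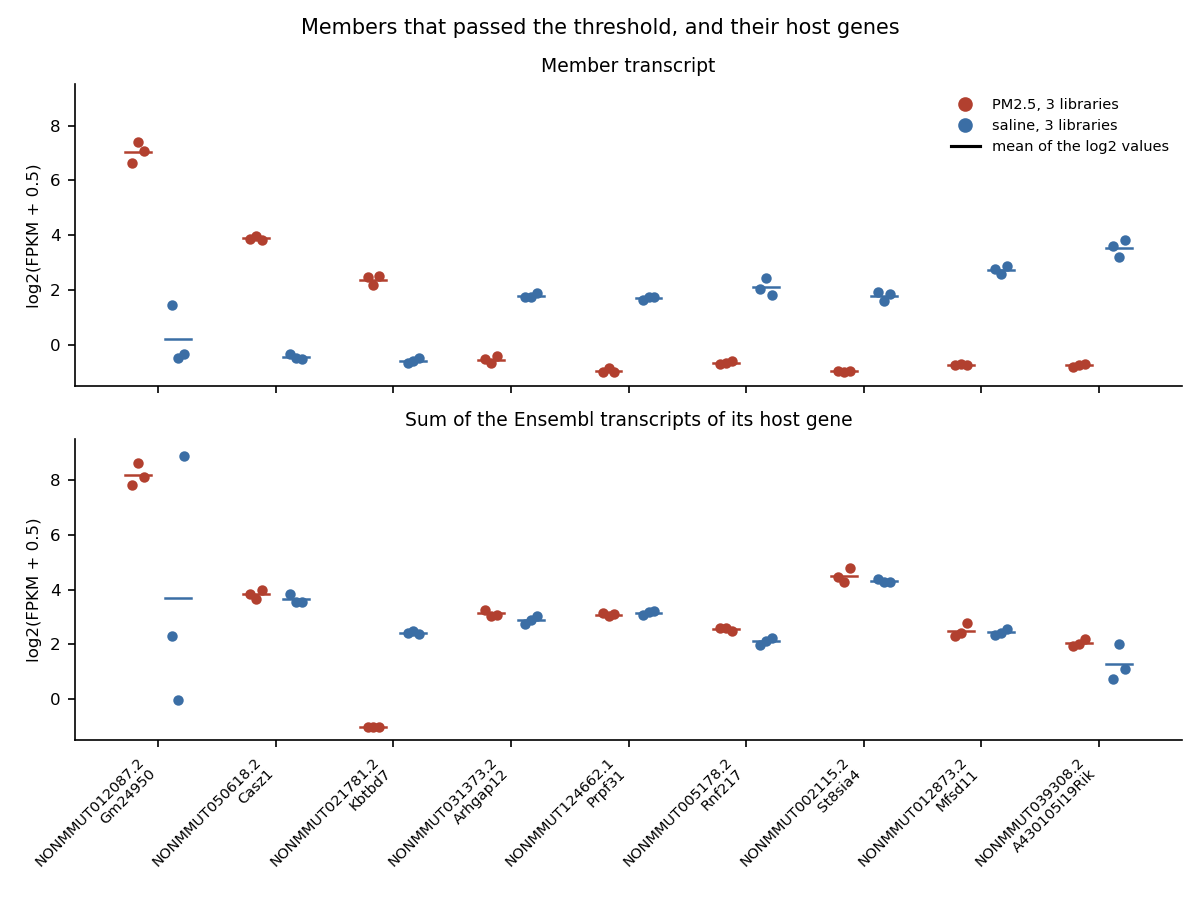
The 9 members past the threshold (top) and the summed Ensembl transcripts of their hosts (bottom) as log2(FPKM + 0.5), one point per library, PM2.5 left and saline right, with a line at the mean of each group. Members separate completely by group in all 9, while among the hosts the Kbtbd7 gene stands out, listed at 0 in the 3 PM2.5 libraries.

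The 6 lower members were near 0 in every PM2.5 library. NONMMUT039308.2 in A430105I19Rik (chr2:118755204-118756847, minus strand) had 0.0657, 0.103 and 0.121 FPKM with PM2.5 and 11.7, 8.65 and 13.7 FPKM with saline (log2 fold change -4.29 ± 0.19 SE, limma adjusted p = 0.0016). NONMMUT012873.2 in Mfsd11, a membrane protein of the major facilitator family (chr11:116874207-116874710, plus strand), had 0.0952, 0.112 and 0.105 FPKM with PM2.5 and 6.39, 5.49 and 6.81 FPKM with saline (-3.47 ± 0.13 SE, adjusted p = 0.0011). These are the lower members with the largest changes, and in each the lowest saline value was over 10 times the highest PM2.5 value. Neither host passed the threshold (limma adjusted p = 0.45 and 0.93), and the host groups overlapped: A430105I19Rik had 3.33, 3.56 and 4.04 FPKM with PM2.5 and 1.15, 3.50 and 1.64 FPKM with saline, and Mfsd11 4.45, 4.81 and 6.42 FPKM with PM2.5 and 4.64, 4.81 and 5.44 FPKM with saline.

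The next pair lay in genes of sugar and protein modification. NONMMUT002115.2 (chr1:95618551-95621810, minus strand) is in St8sia4, which builds polysialic acid chains, and had 0.011, 0.00695 and 0.0204 FPKM with PM2.5 and 3.31, 2.54 and 3.15 FPKM with saline (log2 fold change -2.76 ± 0.16 SE, limma adjusted p = 0.0052). Its 3′ end is that of the host transcript ENSMUST00000189556. NONMMUT005178.2 (chr10:31494035-31496936, minus strand) is in Rnf217, a RING-type ubiquitin ligase, and had 0.112, 0.137 and 0.174 FPKM with PM2.5 and 3.64, 4.91 and 3.04 FPKM with saline (-2.75 ± 0.19 SE, adjusted p = 0.0104). Rnf217 itself went the other way, with 5.61, 5.51 and 5.15 FPKM with PM2.5 and 3.49, 3.92 and 4.16 FPKM with saline, without overlap but short of the threshold (log2 fold change 0.45, limma adjusted p = 0.26).

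The last pair were NONMMUT124662.1, which begins in the Prpf31 promoter window printed above, and NONMMUT031373.2 in Arhgap12, a GTPase-activating protein. The Prpf31 member (chr7:3629786-3649385, plus strand) was listed at 0, 0.0548 and 0 FPKM with PM2.5 and had 2.65, 2.85 and 2.88 FPKM with saline (log2 fold change -2.67 ± 0.15 SE, limma adjusted p = 0.0043). With 63.8% of its span in Prpf31 it runs on into Cnot3, a subunit of the CCR4-NOT deadenylase, and it lies opposite Tfpt and Gm15927. The Cnot3 transcript ENSMUST00000206331 (chr7:3645268-3649600) went the other way, with 2.37, 2.89 and 3.33 FPKM with PM2.5 and 0.035, 0.0576 and 0.0247 FPKM with saline; it was picked out after its values were seen. The Arhgap12 member had 0.197, 0.127 and 0.251 FPKM with PM2.5 and 2.88, 2.84 and 3.23 FPKM with saline (-2.33 ± 0.15 SE, adjusted p = 0.0068). Neither host passed the threshold: Prpf31 had 8.26, 7.67 and 8.18 FPKM with PM2.5 and 7.84, 8.56 and 8.80 FPKM with saline, and Arhgap12 9.09, 7.78 and 8.004 FPKM with PM2.5 and 6.16, 6.91 and 7.73 FPKM with saline.

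Of the 9 called members, 5 shared a 3′ end with a host transcript, 3 lay inside the host and 1 ran past it. The same 9, and no other members, are those whose every library in the lower group was under 10% of the lowest value of the other group, with at least 2 FPKM in each library there. That rule, set after the values were seen, held for 0.112% of all 60525 transcripts. Leaving out a library raised the count of called members to 17 or 19 without PM2.5 replicate 2 or 3 and to 20 or 28 with saline replicate 2 or 4 omitted, of which 8 or 9 were among these 9; with a minimum mean of 2 FPKM it was 5.

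Members that came next did not pass the threshold. The 7 further higher ones by p lay in Prex2, Dcaf8, Mphosph9, Aste1 (opposite Atp2c1), Fam78b, Atp13a3 and Syne2, with log2 fold changes of 0.82 to 2.02 and limma adjusted p of 0.0566 to 0.22. NONMMUT003822.2 in Dcaf8, a substrate receptor of a cullin ubiquitin ligase, had 2.82, 2.23 and 2.47 FPKM with PM2.5 and 0.34, 0.489 and 0.634 FPKM with saline (adjusted p = 0.0566). NONMMUT000162.2 in Prex2, an exchange factor for Rac, had 11.2, 11.9 and 12.6 FPKM with PM2.5 and 5.49, 6.38 and 6.94 FPKM with saline (adjusted p = 0.145). Further lower ones lay in Ubash3b, Meis2 and Slc43a2, with log2 fold changes of -1.86 to -0.90 and adjusted p of 0.0535 to 0.163. NONMMUT039217.2 in Meis2, a homeobox transcription factor, had 0.204, 0.0241 and 0.0846 FPKM with PM2.5 and 1.26, 1.47 and 1.87 FPKM with saline (adjusted p = 0.0958). In each of these 10 the groups did not overlap, which is no further evidence, since the 10 were chosen by low p.

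Set against its own host, a member changed differently in 12 of 8999 pairs. The limma fit was of log2 member minus log2 host, over 36839 transcripts with a partner (for an Ensembl transcript, the others of its gene). Of all these, 0.0706% were called higher than their partner with PM2.5 and 0.1% lower, against 2 and 10 of the 8999 member pairs. The 2 higher were the Casz1 member (difference 4.14 ± 0.19 SE on the log2 scale, adjusted p = 0.0028) and the Kbtbd7 member (adjusted p = 0.00072), whose difference depends on the pseudocount because the host is listed at 0. Of the 10 lower, 6 are the lower members above, with differences of -5.06 to -2.58 and adjusted p of 0.0051 to 0.0294. The remaining 4 are 3 members in Ddx6 and NONMMUT068699.2 in Ubash3b, a phosphatase that restrains receptor signalling in T cells.

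In Ddx6, a helicase of cytoplasmic P bodies that holds messenger RNAs in storage, the member groups overlapped while those of the Ensembl transcript lay far apart, although the host itself missed the threshold (limma adjusted p = 0.0708). NONMMUT068860.2 had 6.89, 5.68 and 8.07 FPKM with PM2.5 and 6.37, 6.28 and 6.28 FPKM with saline, which overlap. The single Ensembl transcript had 6.996, 2.40 and 5.16 FPKM with PM2.5 and 0.00192, 0.00187 and 0.00196 FPKM with saline. NONMMUT068858.2 (3.58, 2.70 and 4.21 FPKM with PM2.5 and 4.20, 3.61 and 3.81 FPKM with saline) and NONMMUT068862.2 (2.30, 2.16 and 2.22 FPKM with PM2.5 and 2.22, 2.93 and 2.27 FPKM with saline) also overlapped between groups. The difference from the host was -3.45 for NONMMUT068858.2, -3.21 for NONMMUT068860.2 and -3.43 for NONMMUT068862.2 (limma adjusted p = 0.0248, 0.0359 and 0.0493). These 3 pairs share 1 host, and their differences depend on the pseudocount because the host is near 0 with saline. With a pseudocount of 1 the calls of NONMMUT068860.2 and NONMMUT068862.2 were lost. The calls of NONMMUT068858.2 and NONMMUT068860.2 passed in 9 and 8 of 14 alternatives. The locus sum had 20.8, 13.8 and 20.7 FPKM with PM2.5 and 14.0, 14.4 and 12.4 FPKM with saline, which overlap (adjusted p = 0.46).

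Ubash3b was close to the limit. Its member had 0.0249, 0.0998 and 0.0344 FPKM with PM2.5 and 1.54, 1.27 and 1.73 FPKM with saline, and the host 2.25, 2.34 and 2.52 FPKM with PM2.5 and 2.21, 1.73 and 1.98 FPKM with saline (difference -2.08 ± 0.22 SE, limma adjusted p = 0.0485). That call, and that of NONMMUT068862.2, passed in 3 of the alternatives run. Leaving out a library gave 10 to 17 called pairs. Omitting saline replicate 2, 3 or 4, only 3, 4 and 4 of them were among the 12, and the Casz1, Kbtbd7 and Mfsd11 pairs passed in every such fit.

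**Figure D2:**
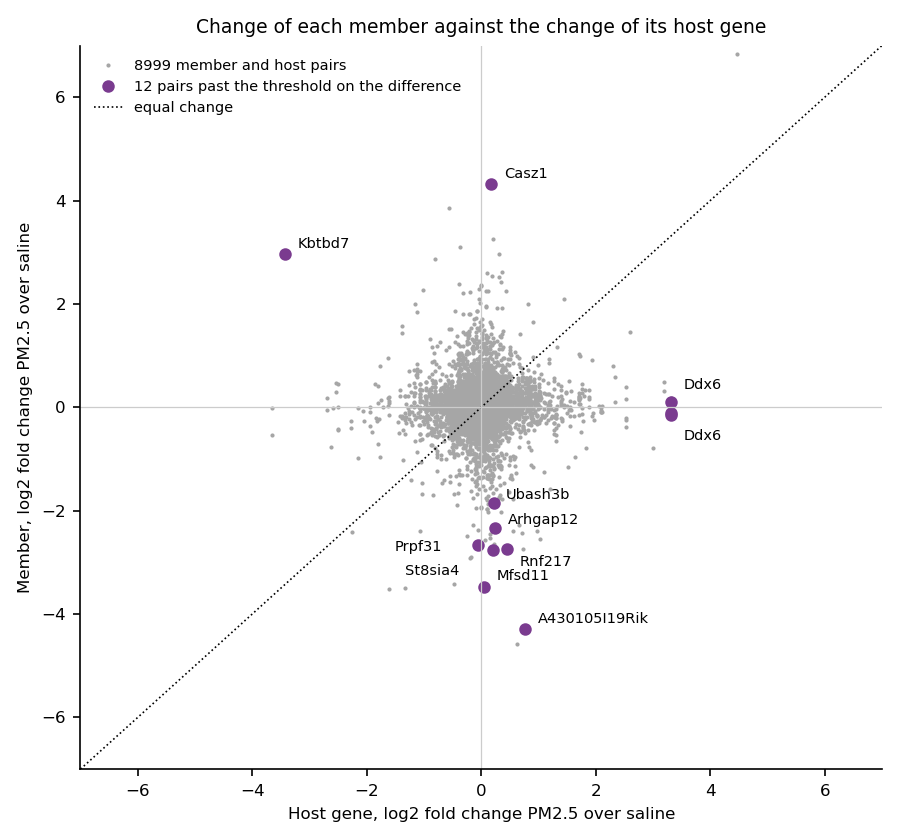
Log2 fold change, PM2.5 over saline, of 8999 members (vertical) against that of their host gene (horizontal), with the 12 pairs past the threshold on the difference in purple and the host named; the dotted line marks equal change. The purple points lie on or near the vertical axis (Casz1 and 7 lower members), the horizontal axis (3 in Ddx6) or the upper left (Kbtbd7).

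Some further differences from the host did not pass. In Scarb2, a lysosomal membrane protein that carries glucocerebrosidase, NONMMUT053112.2 had 61.1, 65.0 and 58.2 FPKM with PM2.5 and 58.6, 62.1 and 66.2 FPKM with saline. The Ensembl transcripts of Scarb2 had 1.83, 5.51 and 1.37 FPKM with PM2.5 and 33.9, 37.9 and 39.3 FPKM with saline, so the host groups were far apart and the member groups overlapped (difference 3.64 ± 0.42 SE, limma adjusted p = 0.0692; 0.0173 without PM2.5 replicate 3). In Vezf1, a zinc finger factor of blood vessels, NONMMUT011400.2 had 23.0, 21.4 and 24.3 FPKM with PM2.5 and 18.2, 21.3 and 22.8 FPKM with saline, against a host of 0.049, 0.0898 and 0.251 FPKM with PM2.5 and 1.67, 1.79 and 1.34 FPKM with saline (difference 1.89, adjusted p = 0.0928). In both genes most of the locus FPKM stood on the NONCODE model.

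Further members filled the list by p. NONMMUT012444.2 in Pitpnc1, a lipid transfer protein, had 6.04, 6.05 and 6.07 FPKM with PM2.5 and 3.98, 2.06 and 2.27 FPKM with saline, and its host 13.1, 12.8 and 14.9 FPKM with PM2.5 and 19.8, 17.5 and 16.2 FPKM with saline. NONMMUT070153.2 in Slc17a5, the lysosomal sialic acid exporter, had 1.37, 1.22 and 1.10 FPKM with PM2.5 and 0.705, 0.674 and 0.845 FPKM with saline, and its host 4.31, 4.08 and 4.29 FPKM with PM2.5 and 6.95, 8.36 and 8.12 FPKM with saline. In both, member and host lay in opposite directions without overlap, and neither difference passed (limma adjusted p = 0.18 and 0.135). Such opposite pairs numbered 111 of 8999 (1.23%), against 465 of 27840 Ensembl pairs (1.67%) and 1.56% of all 36839 pairs, so they were no more frequent among members.

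Among host genes, 7 of the 5831 tested passed the threshold, where 0.0942% of all 14865 gene sums did. The 6 higher were Cbl, Gm2274, Gm4617, Map4k3, Tmem245 and Ubn1, and Kbtbd7 was the lower, and all 7 are among the 24 genes of the earlier report. Of the tested members of these hosts only that of Kbtbd7 passed, in the direction opposite to its host. Cbl, a ubiquitin ligase that ends receptor tyrosine kinase signalling, had 16.6, 16.6 and 17.9 FPKM with PM2.5 and 4.41, 4.66 and 3.76 FPKM with saline, while its member NONMMUT068835.2 had 1.12, 1.27 and 2.08 FPKM with PM2.5 and 1.05, 1.31 and 1.35 FPKM with saline. Map4k3, a kinase upstream of JNK and mTORC1, had 27.1, 26.2 and 32.6 FPKM with PM2.5 and 6.79, 7.60 and 8.92 FPKM with saline, while NONMMUT030759.2 had 3.54, 3.27 and 4.08 FPKM with PM2.5 and 2.90, 2.84 and 2.52 FPKM with saline. The Cbl member groups overlapped and the Map4k3 member was higher without passing (log2 fold change 0.34 ± 0.13 SE, limma adjusted p = 0.52). The difference from the host did not pass in either (adjusted p = 0.12 and 0.133).

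The hosts Tmem245 and Pxk, of which Pxk missed the threshold (limma adjusted p = 0.0622), also lay far apart between groups. Tmem245, a membrane protein gene, had 8.96, 8.95 and 8.92 FPKM with PM2.5 and 2.02, 1.87 and 2.84 FPKM with saline, and NONMMUT047393.2 had 1.77, 2.43 and 1.59 FPKM with PM2.5 and 1.87, 1.46 and 1.40 FPKM with saline. Pxk, a sorting nexin family protein, had 7.60, 5.38 and 6.92 FPKM with PM2.5 and 0.0412, 0.205 and 0.729 FPKM with saline, and NONMMUT019624.2 had 3.70, 3.34 and 2.90 FPKM with PM2.5 and 3.26, 2.20 and 2.29 FPKM with saline. Both of these members overlapped between groups, while NONMMUT019623.2, also in Pxk, had 2.74, 3.18 and 3.42 FPKM with PM2.5 and 2.36, 1.80 and 2.10 FPKM with saline, without overlap but short of the threshold (adjusted p = 0.47). Counted over host and members together, 6 of 6282 loci passed, where 0.0849% of all 15316 did: Casz1, Cbl, Map4k3, Tmem245 and Ubn1 were higher and A430105I19Rik was lower. Host calls fell to 2 without PM2.5 replicate 4 and 4 without saline replicate 3; locus calls numbered 0 with PM2.5 replicate 2 omitted, 2 with saline replicate 3 omitted and 15 with saline replicate 2 omitted.

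At an unadjusted p under 0.05 the members leaned upwards: 603 of 9477 were higher and 299 lower with PM2.5 (6.36% and 3.16%), against 4.56% and 4.89% of all 60525 transcripts. The lean rested on single libraries, with 317 higher and 326 lower without PM2.5 replicate 4, 387 and 321 without PM2.5 replicate 2, 571 and 158 without PM2.5 replicate 3, 272 and 176 when saline replicate 3 was omitted, and 456 and 160 when saline replicate 4 was. By position, the members with both ends away from those of the host accounted for most of it, 537 higher and 196 lower of 7617 tested, with a median log2 fold change of 0.07. Relative to the mean of the saline libraries, their median stood at 0.09, -0.04 and 0.17 in PM2.5 replicates 2, 3 and 4 and at -0.03, -0.03 and 0.07 in saline replicates 2, 3 and 4. PM2.5 replicate 3 thus lay below the highest saline library, and the median fell to 0.03 without PM2.5 replicate 4 and was 0.12 without PM2.5 replicate 3.

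Members that share the 5′ end of a host transcript leaned the other way. Of 588 tested, 15 were higher and 66 lower at an unadjusted p under 0.05 (2.55% and 11.2%), against 4.56% and 4.89% of all transcripts. Of the 588, 0 passed the adjusted threshold of the limma fit. Their median log2 fold change was -0.18, with library medians of -0.09, -0.24 and -0.13 in PM2.5 replicates 2, 3 and 4 and 0.01, -0.01 and 0.03 in saline replicates 2, 3 and 4. All 3 PM2.5 libraries lay below all 3 saline libraries, and the median stayed between -0.20 and -0.13 when each library was left out in turn. Levels are set against the saline mean, so the saline medians centre near 0 and all 3 PM2.5 medians share any error of that mean. The counts moved more: 37 were lower without PM2.5 replicate 3, 40 and 39 with saline replicate 3 or 4 omitted, and 84 without PM2.5 replicate 2, while the higher ones numbered 5 to 14. Set against their hosts, the median difference of the 528 tested pairs was -0.18 on the log2 scale, and 0 of those pairs passed. These position classes were chosen after values were seen, and members of a class are not replicates.

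**Figure D3:**
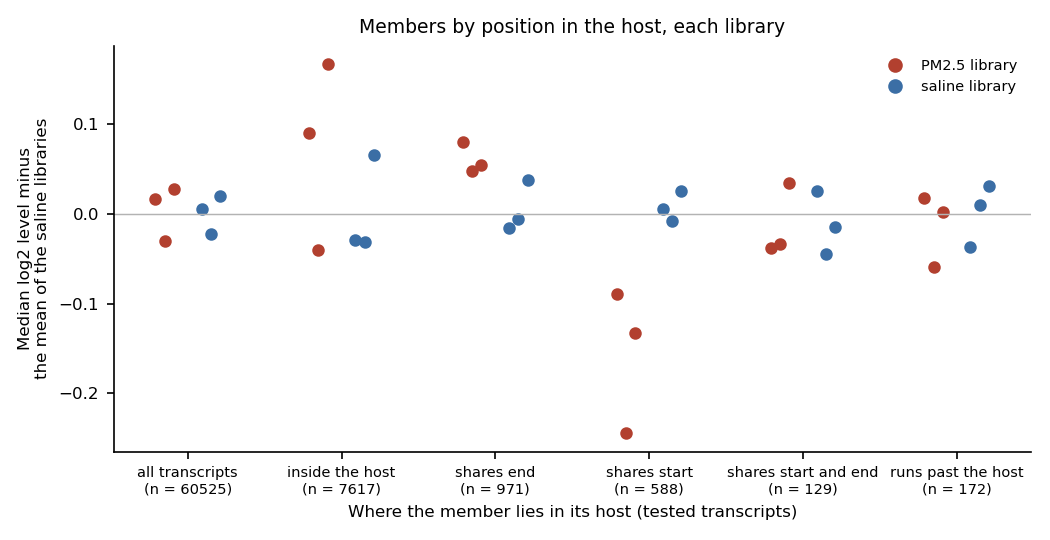
Median over tested transcripts of the log2 level of each library minus the mean of the saline libraries, by where the member lies in its host, PM2.5 left and saline right, one point per library. Members that share the host's start lie lower in the 3 PM2.5 libraries (-0.24 to -0.09) than in the 3 saline libraries, while for members inside the host PM2.5 replicates 2 and 4 lie higher and PM2.5 replicate 3 does not.

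Members starting in the RefSeq promoter window leaned the same way. This set overlaps the one above and is no independent evidence: the Alg12 and C7 members also share the 5′ end of a host transcript. Of the 350 tested, 49 were lower and 11 higher at an unadjusted p under 0.05, against 4.89% and 4.56% of all transcripts. GGGCGG stood in 63.3% of the windows of the 49, 45.5% of those of the 11 and 62.8% of the remaining 290. The Alg12 member had 0.96, 1.16 and 1.05 FPKM with PM2.5 and 1.84, 2.12 and 2.24 FPKM with saline (log2 fold change -0.72 ± 0.13 SE, limma adjusted p = 0.27), while Alg12 itself had 6.87, 7.29 and 5.79 FPKM with PM2.5 and 7.03, 6.56 and 4.38 FPKM with saline. The C7 member had 4.14, 3.92 and 4.13 FPKM with PM2.5 and 5.90, 8.71 and 8.34 FPKM with saline (-0.82 ± 0.17 SE, adjusted p = 0.34), above its host at 0.748, 0.544 and 0.598 FPKM with PM2.5 and 0.655, 0.486 and 0.224 FPKM with saline. In both the member groups did not overlap and the host groups did.

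Of the members that hold a microRNA hairpin, 25 were tested, 0 passed the threshold of the limma fit, and 1 was higher and 2 lower at an unadjusted p under 0.05 (median log2 fold change -0.21, smallest adjusted p 0.37). Over all transcripts, 4.56% were higher and 4.89% lower at that p. NONMMUT117055.1, which holds miR-101a, had 0.146, 0.107 and 0.842 FPKM with PM2.5 and 1.75, 1.61 and 1.75 FPKM with saline, without overlap (log2 fold change -1.45 ± 0.34 SE). Its host E130102H24Rik, with which it shares both ends, had 0, 0.841 and 0 FPKM with PM2.5 and 0 in each saline library. NONMMUT010720.2, which holds miR-22, overlapped between groups, with 7.78, 1.14 and 5.49 FPKM with PM2.5 and 4.76, 7.15 and 6.82 FPKM with saline. Its host Mir22hg, with which it also shares both ends, had 0.068, 6.47 and 1.91 FPKM with PM2.5 and 1.04, 1.35 and 3.97 FPKM with saline. In both loci PM2.5 replicate 3 had the lowest member and the highest host value. How the fragments were divided between these models was not tested. NONMMUT077189.1, which holds the miR-29 pair, had 1.69, 1.52 and 1.69 FPKM with PM2.5 and 1.62, 2.27 and 2.03 FPKM with saline. NONMMUT117875.1 over the miR-200 group had 0.921, 0.915 and 1.16 FPKM with PM2.5 and 1.31, 1.02 and 0.744 FPKM with saline. The miR-29 and miR-200 members thus overlapped as well; the mature microRNAs were not measured.

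Members in hosts that mark lung cell types, and in other host lists, gave 0 calls in the limma fit apart from Kbtbd7 among the genes of the earlier report, where 3 of 14 were higher and 1 lower at an unadjusted p under 0.05. In hosts of the endothelium 10 members were tested, and 4 were higher and 0 lower at that level (median log2 fold change 0.14), where 4.56% of all transcripts were higher and 4.89% lower. Of these 10 members 6 had a positive fold change, and members are not replicates. The 7 endothelial hosts tested gave 0 higher and 1 lower at that level (median log2 fold change -0.10). Among the 10 members, NONMMUT038249.2 in Calcrl, a receptor subunit for adrenomedullin, had 27.2, 17.6 and 24.8 FPKM with PM2.5 and 11.7, 7.45 and 9.11 FPKM with saline, without overlap, while Calcrl overlapped between groups (log2 fold change 1.25 ± 0.23 SE, adjusted p = 0.28). In hosts of mesenchyme and matrix 0 were higher and 2 lower of 14 (median 0.15); NONMMUT054793.2 in Eln, the elastin gene, had 5.48, 3.83 and 2.49 FPKM with PM2.5 and 14.9, 12.6 and 5.45 FPKM with saline, which overlap.

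The remaining lists held few members. Alveolar type 1 hosts had 5 tested, with 0 higher and 1 lower at an unadjusted p under 0.05, type 2 hosts 2, airway epithelium hosts 2, lymphocyte hosts 4, erythroid hosts 1 and particle response hosts 3, with 0 in either direction. Macrophage and monocyte hosts had 4 tested, with 1 lower, and cardiac muscle hosts 2, with 1 higher. Neutrophil and adipocyte genes hosted no member, and in mesothelium and skeletal muscle hosts 0 of 4 and 0 of 1 reached 0.5 FPKM. Annotated noncoding hosts had 106 tested of 323 members, with 3 higher and 3 lower. Their members, in 24 hosts, summed to 383, 375 and 438 FPKM with PM2.5 and 355, 391 and 432 FPKM with saline, which overlap. The 26 listed genes found in the table by exact symbol summed to 685 to 1349 FPKM with PM2.5 and 2231 to 8151 FPKM with saline. Those sums do not overlap, but the 26 include genes without a member and leave out Lincpint, listed under a joint symbol. The 2 sums thus cover unlike sets of genes. Of the 12 hosts tested, 0 were higher and 3 lower at an unadjusted p under 0.05. Summed over the genes of other lists, the 22 lymphocyte genes had 643 to 1259 FPKM with PM2.5 and 262 to 414 FPKM with saline, the 12 airway genes 5298 to 6170 FPKM with PM2.5 and 7478 to 9497 FPKM with saline, and 13 cardiac muscle genes 41.7 to 290 FPKM with PM2.5 and 192 to 408 FPKM with saline. The 18 endothelial genes had 1451 to 1786 FPKM with PM2.5 and 1858 to 1976 FPKM with saline, and the 24 mesenchymal genes 2331 to 2404 FPKM with PM2.5 and 2420 to 2684 FPKM with saline. The lymphocyte sum was higher and the airway, endothelial and mesenchymal sums were lower in all 3 PM2.5 libraries, while the cardiac sums overlapped. Sums of the alveolar type 1, type 2, macrophage and monocyte, neutrophil and erythroid lists overlapped as well. So did those of the mesothelium, skeletal muscle, adipocyte and particle response lists. Such sums weigh the most abundant genes most and do not speak for every gene of a list. Of the airway sum, Scgb1a1 alone held 2565 to 4956 FPKM with PM2.5 and 6377 to 8086 FPKM with saline. Of the endothelial sum, Cldn5 held 90.2 to 107 FPKM with PM2.5 and 164 to 257 FPKM with saline. Pecam1, of the same list, had 136 to 167 FPKM with PM2.5 and 137 to 173 FPKM with saline, which overlap. No gene of these lists was at 0 in all libraries. Their part in the members' values was not tested. The Ryr2 member NONMMUT016357.2, in the calcium release channel of heart muscle, ran from 0.313 to 7.55 FPKM with PM2.5 and from 1.83 to 9.61 FPKM with saline, low in PM2.5 replicates 3 and 4, where the cardiac sum was low as well.

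Some loci were split differently between host and member within a group. NONMMUT009091.2 shares a 3′ end of Sptbn1, the non-erythroid beta spectrin, and had 302, 314 and 318 FPKM with PM2.5 and 274, 335 and 0.0315 FPKM with saline. In saline replicate 4, where the member was near 0, the host had 300.1 FPKM, against 148, 118 and 145 FPKM with PM2.5 and 149 and 124 FPKM in saline replicates 2 and 3. The locus sum had 523, 502 and 547 FPKM with PM2.5 and 483, 530 and 373 FPKM with saline. In Ptrf, the gene of cavin-1, NONMMUT012038.2 had 142, 13.7 and 140 FPKM with PM2.5 and 0.224, 137 and 145 FPKM with saline, and the host 18.8, 44.5 and 12.9 FPKM with PM2.5 and 93.1, 59.1 and 36.3 FPKM with saline. The host was highest of its group in each of the libraries where the member was low.

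A count over all loci used members of at least 2 FPKM in both other libraries of their group, and asked for a value under 10% of both. It held 39, 46 and 47 members in PM2.5 replicates 2, 3 and 4 and 59, 43 and 57 in saline replicates 2, 3 and 4, which is 1.27% to 2.00% of the members that could show it. Other transcripts gave 1.78% to 2.33%, host sums 0.151% to 0.43% and locus sums 0.038% to 0.154%. Of the 291 member cases, 154 (52.9%) had the host highest in that library and 223 (76.6%) a locus of at least 50% of the lower of the other libraries. The ranges of members and other transcripts overlap. Those of locus sums lie below both, but a sum drops less readily than its parts. How often a host is highest without such a case was not counted. A locus with a small member stays above 50% without it, so these shares are descriptions only. This rule too was set after values were seen.

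**Figure D4:**
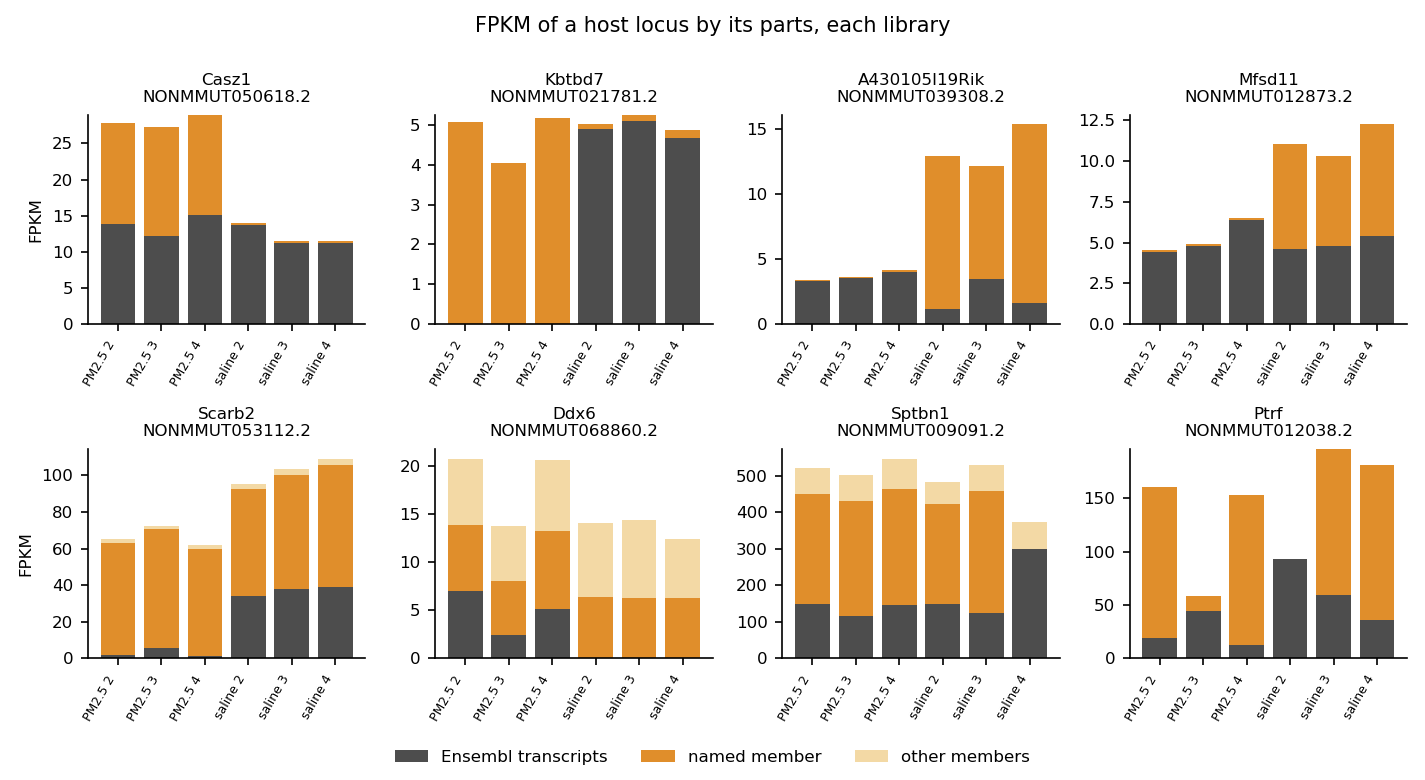
FPKM of 8 host loci in each library, PM2.5 replicates 2, 3 and 4 left and saline replicates right, stacked from the Ensembl transcripts (dark), the named member (orange) and other members (pale). In Kbtbd7 the sum is about equal across libraries while its parts change places, and in Sptbn1 saline replicate 4 (member 0.0315 FPKM) and in Ptrf saline replicate 2 (member 0.224 FPKM) the member is nearly absent within a group.

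In the 12 hosts with the most tested members, 0 members passed the adjusted threshold of the limma fit. Lsamp had 47 tested members, 29 of them with a positive log2 fold change, Chd1, a chromatin remodeller, 42 with 19, and Naaladl2 and Zbtb20 41 each with 25 and 24. Of these, 2 in Chd1 and 0 in the others reached an unadjusted p under 0.05. The median log2 fold changes were 0.06, -0.03, 0.08 and 0.03. Over the 12 hosts they ran from -0.17 in Mir99ahg (9 of 33 positive) to 0.21 in Larp1b (14 of 19 positive), with 6 of 27 positive in Pde4d and 6 of 21 in Rora. Celf2, an RNA-binding splicing regulator with 21 tested members, showed how far a single host can range: its members ran from 1.36 to 756 FPKM on average, and the highest, NONMMUT035535.2, had 670, 860 and 671 FPKM with PM2.5 and 1203, 568 and 564 FPKM with saline, while the host stayed at 26.3, 25.9 and 27.1 FPKM with PM2.5 and 25.3, 24.1 and 25.8 FPKM with saline.

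In a few genes the members carried nearly all of the locus sum of host plus members. Of 1273 hosts with a mean under 0.5 FPKM, 21 had members summing to at least 10 FPKM, a choice made after values were seen. Tug1, a conserved lncRNA, had 0.00391 to 0.00458 FPKM over all 6 libraries as an Ensembl gene, while its 4 members summed to 19.6, 16.8 and 10.6 FPKM with PM2.5 and 13.9, 16.99 and 18.2 FPKM with saline. Mir99ahg, the host transcript of miR-99a and let-7c, had 0.0511 to 0.288 FPKM, and its 41 members summed to 56.5, 44.8 and 61.1 FPKM with PM2.5 and 56.9, 63.7 and 62.5 FPKM with saline. Daam1, a formin of the planar polarity pathway, had 0.0139 to 0.0208 FPKM, and its 4 members summed to 27.8, 24.0 and 27.7 FPKM with PM2.5 and 22.8, 4.26 and 29.2 FPKM with saline. The groups overlapped in all 3 genes, and the locus sums of 0 of the 21 passed the threshold of the limma fit.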

How the data were processed

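The single table used was deposited by the authors and lists transcripts by library, and its values were taken as FPKM because the columns carry no unit but sum to 345089 to 388125 per library. The submitters' processing notes name HISAT2, bcl2fastq and the mm10 build without versions. Which program and annotation gave the values is not given in the sources used here. Per the labels' protocols, lungs were snap frozen, RNA was extracted with Trizol, and a NEBNext Ultra kit was used.

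From these values, each member was matched to the same-strand Ensembl gene holding most of its span. Ensembl transcripts were summed per symbol, and locus sums add a gene's members. A further 12779 transcripts, whose identifiers start with MERGE, entered no host or locus sum. Fits used limma 3.58.1 in R 4.3.3 (empirical Bayes with a mean trend, 2-sided) on log2(FPKM + 0.5) of all features in the table averaging 0.5 FPKM or more, and were tested on simulated data. Members named are the most changed by the fits, up to 10 and 8 per direction, the 8 highest, up to 2 per host list, and those in hosts of an earlier report. A start or end counts as shared within 100 bases. RefSeq tables of GRCm38.p6 gave gene classes, promoters and microRNAs. Alternatives were other pseudocounts (1 and 0.1), filters and scalings, robust moderation, each library left out, the replicate number as a block, and stricter member rules. The members and lists were chosen with earlier results of these data known. One member that the naming rule selects is not reported here.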

Additional observations from a re-analysis of the deposited data

How the results depend on the processing

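Alternatives for the position medians and for counts at an unadjusted p were chosen after seeing the data. Replicate numbers are shared between groups, but same-numbered libraries did not deviate together (r of 0.0067, 0.0033 and 0.0043 over all transcripts), so the numbers were not taken as pairs. With the replicate number as a block, 0 members, 0 hosts, 0 member and host differences and 0 loci passed, in a limma fit with fewer degrees of freedom. With a minimum mean of 2 FPKM there were 5 members, 4 hosts and 7 differences, and 355 higher and 102 lower members at an unadjusted p under 0.05. With no filter there were 19 differences (11 of the 12), 505 lower members at that p, and medians of 0.018 for members inside the host, 0.0020 for those sharing its end and -0.056 for those sharing its start. Leaving out each library in turn gave 10 to 28 called members, 2 to 10 hosts, 10 to 17 differences and 0 to 15 loci. It gave 272 to 571 members higher and 158 to 326 lower at an unadjusted p under 0.05, and medians of 0.0257 to 0.125 inside the host. Both differences in the members' share of FPKM kept their sign. The causes of these moves were not tested. Among values of named members and loci, 1125 kept direction and side of the threshold, 93 lost a call, 9 gained one and 16 changed sign, none of which was called. With quantile normalization NONMMUT053112.2 in Scarb2 had 0.0034. The other sign changes came from leaving out a library: the log2 fold change ran from -0.0623 to 0.0247 for NONMMUT053112.2, from -0.0357 to 0.301 for NONMMUT068835.2 in Cbl, from -0.274 to 0.00629 for NONMMUT068858.2 and from -0.0108 to 0.224 for NONMMUT068860.2 in Ddx6. The difference from the host ran from -0.494 to 3.89 for NONMMUT012087.2 in Gm24950 and from -1.20 to 0.257 for NONMMUT026158.2 in Atp13a3. Locus sums ran from -0.0400 to 0.1002 in Vezf1, from -0.389 to 0.0259 in Slc43a2, from -0.0872 to 0.137 in St8sia4 and from -0.142 to 0.0150 in Kbtbd7. With 3 libraries per group and an unknown number of fragments, a change that misses the threshold was not shown to be absent.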
